A study of Mus musculus with 3 samples.

Results

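The core circadian clock genes were followed in hippocampal RNA of stressed mice that had received extracellular vesicles (EVs), membrane-bound particles that cells release and that carry protein, lipid and RNA. The members were the 10 genes Arntl (also written Bmal1), Clock, Per1, Per2, Per3, Cry1, Cry2, Nr1d1, Nr1d2 and Dbp, found by their symbols in the array annotation among 19504 named genes. All 10 were measured, each by 1 probe set, and all 10 lay above the background level of 6.01 on every array. Background was set at the 95th percentile of the signal of 1448 chemosensory receptor genes, which the hippocampus is not known to use.

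There were 3 groups of male C57BL/6J mice, 11 weeks old, housed under 12 h of light and 12 h of dark. The RE group was restrained for 3 weeks, 6 h per day, and then received 20 μg of EVs, injected into the lateral ventricle, from the sera of mice that had a running wheel for 4 weeks (4 mice). The RS group was restrained in the same way and received 20 μg of EVs from sedentary mice (4 mice). The NV group was not restrained and received vehicle, according to the methods, although its label speaks of vesicles and of PBS (3 mice). The hippocampi of a group, collected 3 days after injection, were pooled and hybridized to 1 array, so that no value has a replicate and no p-value is given. The labels also name ventral hippocampus, whereas the methods name hippocampus. Restraint and the injected material both differed between RS and NV, and their parts cannot be told apart. Clock transcripts cycle over the day, but no source used here gives the hour of tissue collection or says whether it was the same for the 3 pools.

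The clock of mammalian cells is a loop of transcription. ARNTL and CLOCK form a dimer, the positive limb, that binds E-box sequences and switches on the Per and Cry genes, and the PER and CRY proteins, the negative limb, then enter the nucleus and repress that dimer. In a second loop the REV-ERB receptors encoded by Nr1d1 and Nr1d2 repress Arntl through ROR elements, and DBP, itself driven through E-boxes, carries the rhythm to genes with D-boxes. The hippocampus, like most tissues, runs such a clock, which the suprachiasmatic nucleus of the hypothalamus keeps in time. In most tissues Arntl transcripts peak at about the opposite time of day from those of Nr1d1 and Dbp.

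Some of the matches to E-box, E-box-like and D-box letters near the members' start sites are shown first. Promoter windows from 250 bases before to 50 after an annotated start site came from RefSeq (GRCm38.p6), with 13 windows for 9 of the 10 members, all but Per2. The pieces below run 5′ to 3′ along the strand of the gene, with the motif in capitals.
Per3, first D-box, chr4:151044843-151044890: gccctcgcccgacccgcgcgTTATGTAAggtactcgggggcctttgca
Per3, next D-box, chr4:151044796-151044843: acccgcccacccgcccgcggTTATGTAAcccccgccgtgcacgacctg
Cry1, E-box, chr10:85185089-85185134: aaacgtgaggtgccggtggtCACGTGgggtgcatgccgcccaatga
Per1, E-box, chr11:69098763-69098808: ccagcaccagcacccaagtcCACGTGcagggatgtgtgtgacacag
Nr1d1, E-box-like, chr11:98775380-98775425: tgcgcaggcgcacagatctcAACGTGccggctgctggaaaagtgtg

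Per3 was the only member whose window held a D-box, searched as TTATGTAA or TTACGTAA on both strands, and it held 2, starting at -205 and -158 relative to the start site. A D-box was found for 1.23% of the 27025 genes with a window of this length. The E-box CACGTG was found for 2 of 9 members, Per1 and Cry1, against 8.09% of genes. The E-box-like CACGTT was found for 3 of 9 members, Cry1, Cry2 and Nr1d1, against 5.44% of genes, and in the Nr1d1 piece it lies on the opposite strand and so is printed as its reverse complement. The cAMP response element TGACGTCA was found for 0 of 9 members (2.03% of genes), and its shorter core TGACG, which the full element contains, for Per1, Cry1 and Cry2 (23% of genes). AGGTCA preceded by 2 bases that are each A or T, a core of the ROR element, was found for 0 of 9 members and 3.84% of genes. These matches are descriptions of the letters in the windows only, and binding was not measured.

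Per3, a PER family member that is less essential to the loop than Per1 and Per2 in mice, was the only member that passed the 2-fold threshold, and it did so in RS against NV. Its log2 signal was 9.17 in RE, 9.87 in RS and 8.77 in NV. The difference between RS and NV was 1.10, a linear fold of 2.15, and the difference between RE and RS was -0.70. Among all genes, 5.74% differed as much between RS and NV and 5.6% between RE and RS. RS thus stood above both other pools, and RE stood above NV by 0.41. The call was close to the threshold, and after removal of the trend of the difference with signal it was 0.99.

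**Figure D1:**
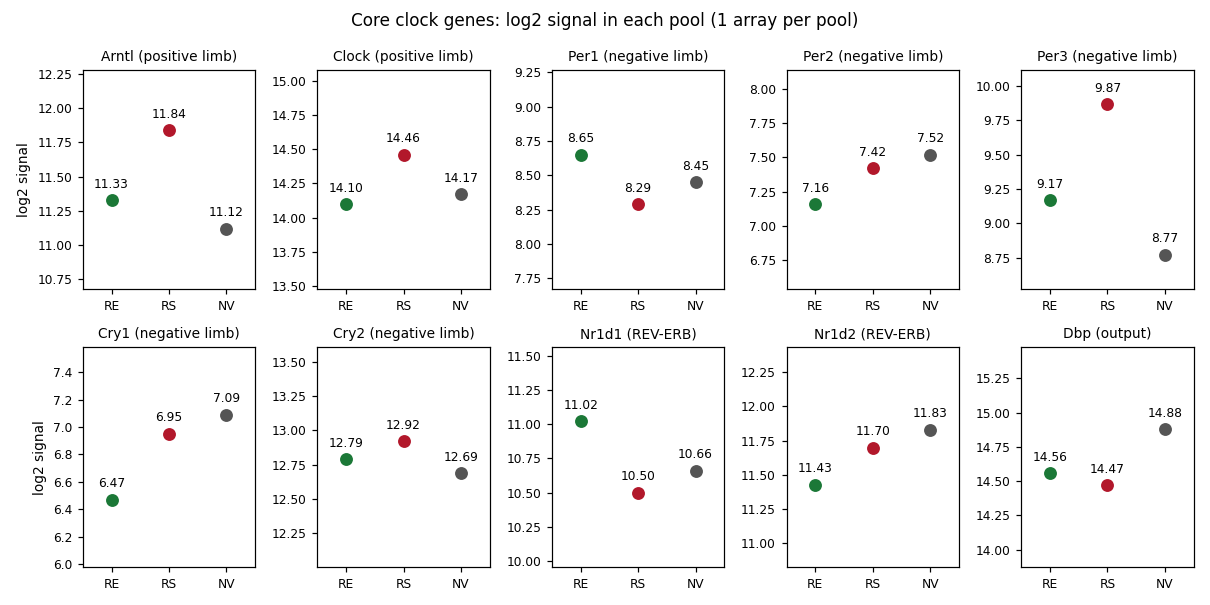
Log2 signal of the 10 clock genes in the RE, RS and NV pools, with 1 point for each array and no replicates. Each panel has its own vertical axis, which spans 1.6 log2 units. Arntl, Clock, Per3 and Cry2 were highest in RS, with Per3 at 9.87 against 9.17 in RE and 8.77 in NV.

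Of the 10 members, 1 was higher and 0 were lower by 2-fold or more in RS than in NV, where 7.8% of all genes passed in either direction. Between RE and RS, 0 passed, against 1.16% of all genes, and between RE and NV, 0 passed, against 7.98%. At 1.5-fold, 2 members, Per3 and Arntl, were higher in RS than in NV, with 25.5% of all genes past that threshold. At the same threshold Per3 was lower in RE than in RS (9.79% of all genes) and Cry1 was lower in RE than in NV (26.5% of all genes). The members' counts were therefore near or below the share of all genes in each comparison. The median difference of the 10 members was -0.11 in RS minus NV, beside -0.01 over all genes. It was -0.27 in RE minus RS, beside -0.07, and 0.02 in RE minus NV, beside -0.06.

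**Figure D2:**
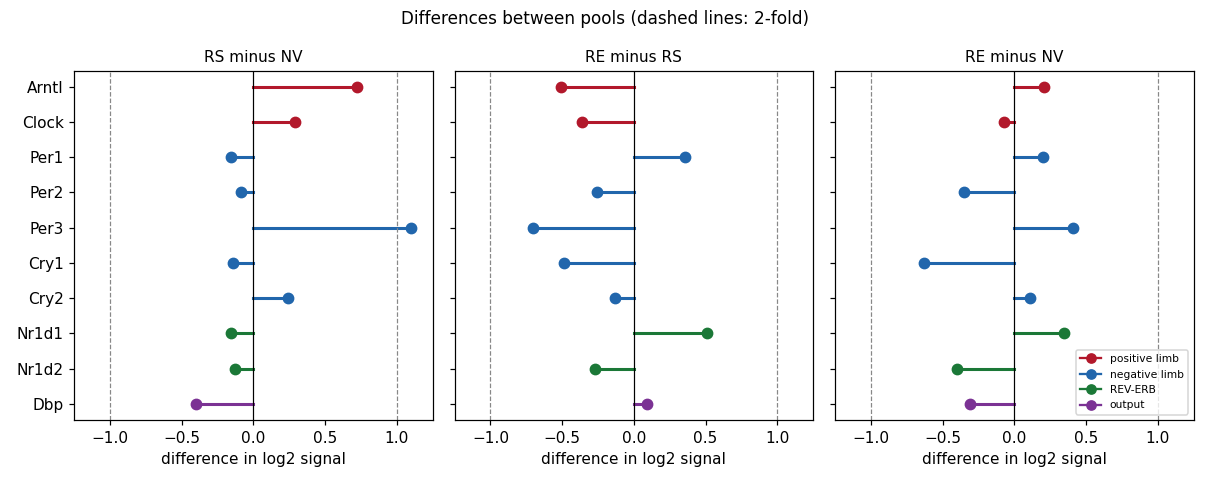
Differences in log2 signal of the 10 clock genes for RS minus NV, RE minus RS and RE minus NV, coloured by role. Dashed lines mark 2-fold, and Per3 in RS minus NV, at 1.10, is the only point beyond one.

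In the positive limb, Arntl, the partner without which the loop does not cycle, had a log2 signal of 11.33 in RE, 11.84 in RS and 11.12 in NV. Its difference was 0.72 between RS and NV, a fold of 1.65, and -0.51 between RE and RS. Among all genes, 17.5% differed by as much or more between RS and NV, and 13.9% between RE and RS. Clock, which encodes the other partner, a histone acetyltransferase, had 14.10 in RE, 14.46 in RS and 14.17 in NV. Its differences of 0.29 and -0.36 had the same signs as those of Arntl but were smaller in RS against NV, where 53.5% of genes differed as much. After lowess they were 0.17 and -0.20, and after quantile normalization 0.13 and -0.20. Both genes of the positive limb were highest in RS, and in RE they lay 0.21 (Arntl) and -0.07 (Clock) from NV.

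In the negative limb the members went different ways. Per1, which is also known as a gene induced by neuronal activity and by glucocorticoids, had 8.65 in RE, 8.29 in RS and 8.45 in NV. It was lowest in RS, with a difference of -0.16 between RS and NV and of 0.36 between RE and RS. Per2, its close paralog, had 7.16 in RE, 7.42 in RS and 7.52 in NV, and its differences of -0.09 and -0.26 were both negative. Cry1, a strong repressor of the ARNTL and CLOCK dimer, had 6.47 in RE, 6.95 in RS and 7.09 in NV. Its value in RE was the one nearest to the background level of 6.01 among the 3 pools. The difference of -0.63 between RE and NV was a linear fold of 1.54 in favour of NV, and the difference between RE and RS was -0.49. Cry2, the second cryptochrome, had 12.79 in RE, 12.92 in RS and 12.69 in NV. Its differences were 0.24 between RS and NV and -0.13 between RE and RS, and its whole range over the 3 pools was 0.24. After lowess or quantile normalization the difference between RS and NV was 0.12.

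Set side by side, the medians of the limbs were farther apart in RS against NV than in the other comparisons. Between RS and NV the median difference was 0.51 for the 2 genes of the positive limb and -0.09 for the 5 genes of the negative limb, a gap of 0.60. Of the negative limb, 4 genes lay below both positive limb genes, while Per3 lay above both. Between RE and RS the medians were -0.43 for the positive and -0.26 for the negative limb, a gap of -0.17. The negative limb genes there ran from -0.70 to 0.36, with 3 above both positive limb genes and 1 below both. Between RE and NV they were 0.07 and 0.11, a gap of -0.04. After removal of the trend with signal the gap between RS and NV was 0.52. RS enters the first 2 of these comparisons, so that a value particular to the RS array moves both, in opposite directions. With 2 and 5 genes and 1 array per pool, the gap has no error and was not tested.

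The REV-ERB genes had different orders. Nr1d1, which encodes the main repressor of Arntl, had 11.02 in RE, 10.50 in RS and 10.66 in NV. Its difference was 0.51 between RE and RS, a fold of 1.43 that 13.4% of all genes equalled or exceeded, and -0.16 between RS and NV. Nr1d2, which encodes the related receptor, had 11.43 in RE, 11.70 in RS and 11.83 in NV, with differences of -0.27 between RE and RS and -0.13 between RS and NV. Nr1d1 was therefore highest, and Nr1d2 lowest, in RE. Arntl and Nr1d1, which peak at opposite times of day in most tissues, had differences of opposite sign only in the comparisons that hold the RS array. These were -0.51 and 0.51 between RE and RS, and 0.72 and -0.16 between RS and NV. Between RE and NV both were positive, at 0.21 for Arntl and 0.35 for Nr1d1. Not all other members followed this pair. Between RE and RS Nr1d2 (-0.27) and Per3 (-0.70) had the sign of Arntl, and Dbp had 0.09. Between RS and NV Per3 (1.10) had the sign of Arntl, and Nr1d2 (-0.13) and Dbp (-0.40) had that of Nr1d1. The timing of the clock was not tested.
Dbp, the output factor, had 14.56 in RE, 14.47 in RS and 14.88 in NV. Its difference of -0.40 between RS and NV was the most negative among the members in that comparison, a fold of 1.32 in favour of NV, and 40.6% of all genes differed as much. Between RE and RS it was 0.09, which became 0.27 after lowess and 0.26 after quantile normalization. Per3, whose promoter pieces above carry the D-boxes, had its highest value in RS, the pool in which Dbp had its lowest.

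The members showed 3 patterns over the pools. RS was highest for 4 members, Arntl, Clock, Per3 and Cry2, an order found for 34.6% of all genes. RS was lowest for 3 members, Per1, Nr1d1 and Dbp, as for 26.5% of genes. Per2, Cry1 and Nr1d2 had NV highest and RE lowest, as for 23.9% of genes. RE was highest and NV lowest for 0 members and 15% of genes. Each member kept its order when the arrays were centred on their medians and when they were quantile normalized. The pairs of paralogs Per1 and Per2, Cry1 and Cry2, and Nr1d1 and Nr1d2 were each divided between orders.

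**Figure D3:**
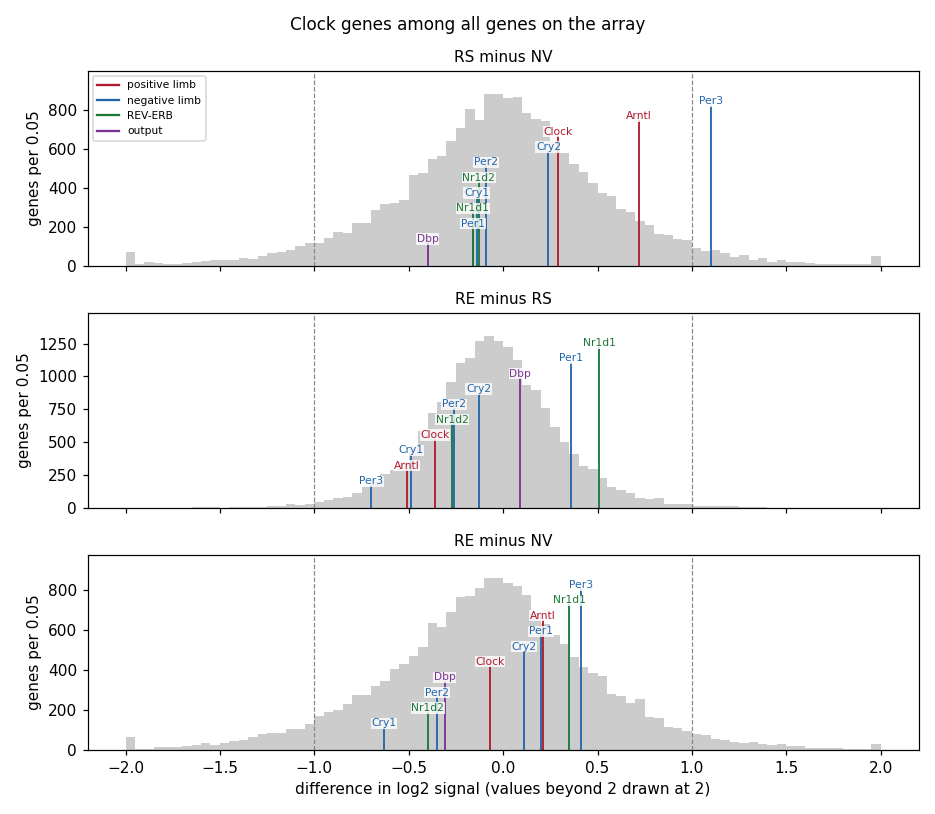
Distribution over all 19504 genes of the difference in log2 signal (grey bars, genes per bin of 0.05), with each clock gene at its own difference. The height of a coloured line only separates the names, and genes beyond 2 are drawn at 2. Per3 lies farthest out of the clock genes in RS minus NV, at 1.10, and in RE minus RS, at -0.70.

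Further clock genes were taken from 4 lists that hold 52 genes besides the members, of which 45 were measured and 43 lay above background on at least 1 array. In RS against NV 1 was higher and 0 were lower by 2-fold, 2.22% of those measured beside 7.8% of all genes, with a median difference of 0.05 that became -0.05 after lowess or quantile normalization. In RE against RS 0 were higher and 1 was lower, 2.22% of those measured beside 1.16% of all genes. The median was -0.09, and 35 of 45 differences were negative as deposited. After centring, those of Bhlhe41, Tef, Cipc, Sirt1, Wdr5, Ep300 and Tspan4 were positive. In RE against NV 1 was higher and 1 lower, 4.44% of those measured beside 7.98% of all genes, with a median of -0.09. Over all 19504 genes, 11408 differences were negative in RE against RS. The 7 listed genes without a probe set here were not analysed.

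Among the other transcription factors, 11 of 12 were measured. Hlf encodes a factor of the DBP family that binds the same D-boxes. It had 10.88 in RE, 10.57 in RS and 9.58 in NV. It passed the threshold between RE and NV, with 1.30, and lay just under it between RS and NV, with 0.98. Tef, the third factor of that family, was below background on all 3 arrays at 5.40, 5.41 and 5.67. Nfil3, a repressor at D-boxes, had 6.05 in RE, 6.66 in RS and 6.33 in NV, the first of these just above background. The activators at D-boxes thus did not share an order, since Hlf was lowest and Dbp highest in NV.
Rorb and Rora encode nuclear receptors that activate Arntl at the elements where REV-ERB represses it. Rorb had 11.30 in RE, 11.29 in RS and 11.95 in NV, and Rora had 9.72, 9.82 and 10.08 in the same pools. Their differences between RS and NV were -0.66 and -0.27, opposite in sign to that of Arntl. That of Rora was -0.75 when its probe sets were averaged. Rora is also on the list of thalamus markers used below, of which 2 were higher and 2 lower by 2-fold in RS than in NV. A link of these differences to Arntl or to the tissue in the pools was not tested. Bhlhe40, an E-box repressor also known as Dec1, had 12.85 in RE, 12.76 in RS and 12.15 in NV, a difference of 0.61 between RS and NV, and its paralog Bhlhe41 had one of 0.21. Npas2, which can take the place of CLOCK in the forebrain, had 9.59 in RE, 9.66 in RS and 9.95 in NV. The difference of Npas2 between RS and NV was -0.29, beside 0.29 for Clock. Arntl2, the paralog of Arntl, had a difference of -0.23 in that comparison, and the repressor genes Ciart and Cipc had 0.12 and 0.27.

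**Figure D4:**
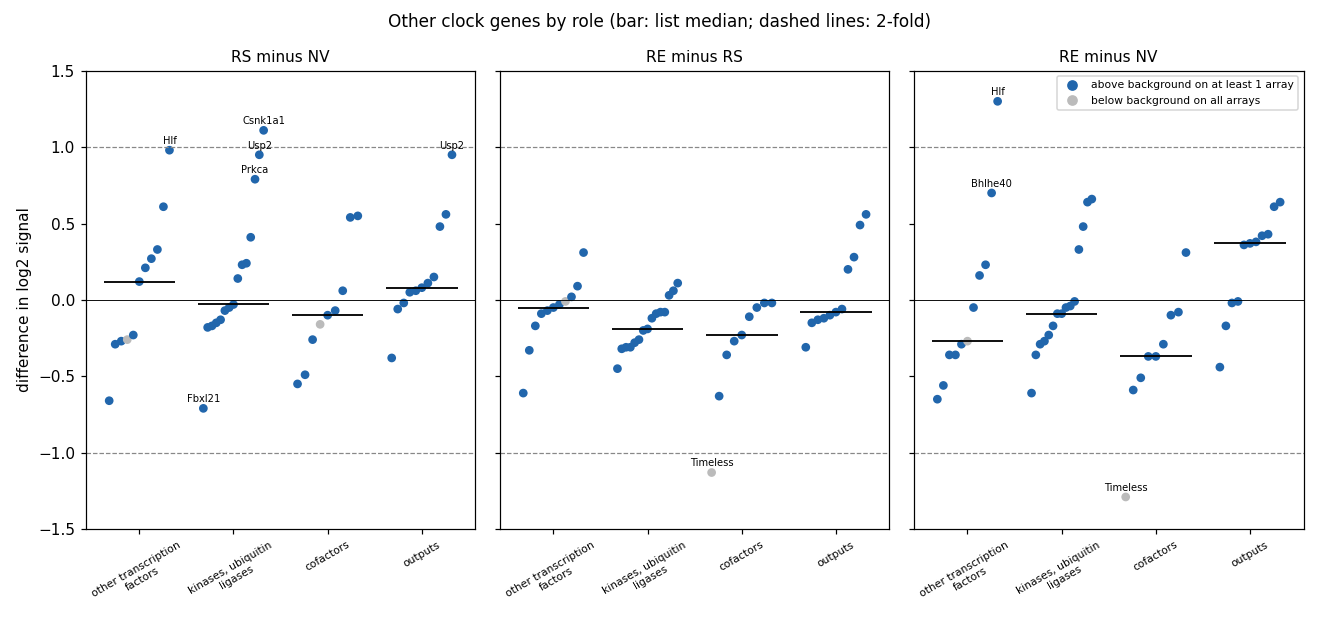
Differences in log2 signal of further clock genes for RS minus NV, RE minus RS and RE minus NV, by role, with a black bar at the median of each list. Grey points were below background on all arrays, dashed lines mark 2-fold, and Hlf in RE minus NV, at 1.30, is the highest point.

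Of the kinases, ubiquitin ligases and their opponents, 15 of 17 were measured and 1 passed the threshold in RS against NV. Csnk1a1, a casein kinase that can phosphorylate PER proteins, had 15.74 in RE, 16.19 in RS and 15.08 in NV. Its difference of 1.11 between RS and NV was 0.96 after removal of the trend with signal and 0.92 after quantile normalization, under the threshold in both cases. Csnk1d and Csnk1e, the casein kinases best known for setting the period, had differences of -0.18 and -0.05. Usp2, a deubiquitinase whose own transcript cycles, had 8.89 in RE, 9.20 in RS and 8.25 in NV, with 0.95 between RS and NV. Prkca, a protein kinase C, had 0.79 in that comparison, and Fbxl21, a ubiquitin ligase subunit for CRY proteins, had -0.71, with 7.66 in RE, 7.56 in RS and 8.27 in NV.
Of the cofactors, 9 of 12 were measured. Timeless was the 1 further gene counted as lower, but it was below background on all 3 arrays, at 4.46 in RE, 5.58 in RS and 5.75 in NV, so that no fold is given. Tipin, the partner of TIMELESS in DNA replication, had 6.93 in RE, 7.56 in RS and 7.01 in NV. The coactivator genes Crebbp and Ep300, which encode histone acetyltransferases, had differences of 0.54 and -0.49 between RS and NV, and Wdr5, which encodes a subunit of histone methyltransferases, had -0.55. Between RE and RS all 9 differences of this list were negative as deposited, with a median of -0.23, but after centring 3 (Sirt1, Wdr5 and Ep300) were positive. The median was -0.17 after centring, -0.12 after quantile normalization and -0.07 after lowess. Of the clock-controlled outputs, 11 of 12 were measured and 0 passed in any comparison. Nampt, the enzyme that salvages NAD, had 10.81 in RE, 10.94 in RS and 10.38 in NV. The cold-inducible RNA binding genes Cirbp and Rbm3 had differences of 0.08 and -0.02 between RS and NV.

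Per1 was set beside lists of the signals known to induce it. Among the 18 immediate early genes, RS exceeded NV by 2-fold for 7 (Bdnf, Nr4a1, Egr3, Junb, Btg2, Arc and Nr4a2), and NV exceeded RS by 2-fold for 0. All 18 differences were positive, with a median of 0.92, while Per1 had -0.16. Bdnf, a neurotrophin gene with the largest RS minus NV difference of that list, had 11.91 in RE, 12.36 in RS and 10.65 in NV. Of 15 glucocorticoid targets, 1 was higher, Zbtb16 with 1.06, 0 were lower, 13 differences were positive, and the median was 0.33. That is 1 of 15, where 7.8% of all genes passed. The counts of signs and the medians include genes below background on all arrays. These were Egr4, Npas4 and Ier2 of the immediate early genes, and Cdkn1a, Lcn2 and Plin4 of the glucocorticoid targets. Fos was above background only in RS. Between RE and NV, 2 glucocorticoid targets were higher and 1 lower, where 7.98% of all genes passed. The higher ones were Zbtb16, with 1.04, and Errfi1, a feedback inhibitor of EGF receptor signalling, with 11.87 in RE, 11.55 in RS and 10.78 in NV. The lower one was Cdkn1a, which was below background on all arrays. Klf9, a glucocorticoid target that is also rhythmic, had 13.30 in RE, 13.51 in RS and 12.58 in NV. In RE against RS the medians of the same lists were -0.31 and -0.09, with 0 genes past the threshold in either, while Per1 had 0.36. The medians over all genes were -0.01 in RS minus NV and -0.07 in RE minus RS. Since both comparisons hold the RS array, their values for Per1 and the lists are not separate observations. In RE against NV, without that array, Per1 had 0.20. The medians there were 0.63 for the immediate early genes, with 15 positive and 3 negative, and 0.26 for the glucocorticoid targets, with 9 positive and 6 negative. Over all genes the median was -0.06. A link of Per1 to these lists was not tested.

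Markers of some regions and cell types differed between the pools, and those of others differed less. In NV the dentate gyrus genes Dsp and Tdo2 and the CA1 gene Pou3f1 were below background, at 4.85, 4.42 and 5.60, and the other genes of these lists were above it on every array. Coch of the ventral hippocampus list and Pou4f1 of the habenula list were above background only in NV. Tac2, Gpr151 and Chrnb4 of the habenula list and Lef1 and Gbx2 of the thalamus list were below it on all arrays. Of all genes, 7.8% passed 2-fold in either direction between RS and NV, and 1.16% between RE and RS. In RS against NV, 5 of 8 dentate gyrus genes were higher (median 2.69), Dsp and Tdo2 among them. Of the other lists, 6 of 7 ventral hippocampus genes were lower (median -2.26), 3 of 5 oligodendrocyte genes were higher (median 1.15), and 2 of 6 inhibitory interneuron genes were lower (median -0.71). In the same comparison 2 of 5 CA1 genes (median 0.80), 1 of 5 CA3 genes (median 0.61) and 1 of 5 astrocyte genes (median 0.10) were higher and 0 lower. Of 5 habenula genes, 1 was higher (Nr4a2, also on the immediate early gene list) and 1 lower (Pou4f1), with a median of -0.51. None of the 4 endothelial genes (median 0.06) or the 4 microglia genes (median 0.48) passed. In RE against RS the ventral hippocampus median was 0.91, with 3 higher, and the dentate gyrus median was -0.31, with 1 lower. The CA1 median there was -0.59, with 1 lower, and the CA3 median was -0.12, with 1 lower. No thalamus, habenula, oligodendrocyte, astrocyte, inhibitory interneuron, endothelial or microglia gene passed in that comparison. The median signal of the dentate gyrus list was 8.71 in RE, 9.30 in RS and 7.99 in NV, and that of the ventral hippocampus list was 10.53 in RE, 9.62 in RS and 11.88 in NV. Of 7 thalamus genes, 4 passed 2-fold between RS and NV, 2 in each direction (median -0.27), and the lower pair, Tcf7l2 and Slc17a6, had 8.54 and 8.95 in RE, 8.21 and 8.70 in RS, and 12.89 and 12.00 in NV. The higher pair, Prkcd and Plekhg1, had 8.78 and 9.49 in RE, 9.08 and 10.03 in RS, and 7.10 and 8.34 in NV. Of 10 genes known from the suprachiasmatic nucleus, 7, among them Avp, Nms and Prok2, were below background on all arrays, and those above it were Vip, Grp and Rgs16. In pooled tissue a change in the share of a cell type and a change in RNA per cell cannot be told apart, and the part of these shifts in the clock gene values was not tested.

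The genes outside the lists whose 2 differences, RS minus NV and RE minus RS, lay nearest to those of Per3 were Sinhcaf, Dio2, Hunk, Zbtb1 and Dhodh, at Euclidean distances of 0.0484 to 0.122 log2 units, among 3004 genes of like signal and above background. Dio2, the deiodinase that activates thyroid hormone, had 9.94 in RE, 10.61 in RS and 9.58 in NV. For Arntl they were Rsbn1l, Phactr1, Kctd16, Zfp800 and Uxs1, at distances of 0.00615 to 0.0506 among 2291 genes. With 3 arrays, a near match rests on only 2 differences.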

How the data were processed

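RNA pooled by group was hybridized to 1 Affymetrix whole-transcript array for each of 3 pools. The authors deposited log2 signals for 22205 probe sets. RMA and Affymetrix Power Tools are named in the submitters' processing notes, and the methods name the Command Console software, with no versions. Values reach 19.93, above the 16 of a plain 16-bit scan, and no source used here gives a rescaling step before the log. Array signal has no read depth, and the number of arrays limits the precision.

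Of the probe sets, 19571 had 1 symbol and 2634 had none here. A gene was represented by its probe set with the highest mean, which left 19504 genes. The only comparison was the difference of log2 values, called at 2-fold as in the methods, with no test.

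The members and lists were chosen with earlier results of these data known. All members were named. Of each list of further clock genes and of glucocorticoid and early response genes, those named included those past 2-fold and above background or, where none passed, up to 4 with the largest RS minus NV difference. All other transcription factors were named. Marker lists are given by counts, and other names (among them Csnk1d, Csnk1e, Usp2, Prkca, Fbxl21, Timeless, Klf9, Cirbp, Rbm3, Sirt1 and single markers) were added after their values were seen. Nearest genes had to be above background on all arrays and within 1 log2 unit of the member's mean.

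Alternatives were centring on the median, removal of a lowess trend (span 0.3), quantile normalization, the mean of probe sets, a filter on background, a threshold of 1.5-fold, and the replacement of RS by RE or by the mean of both restrained pools. The calling of differences was run on simulated data, in which 200 genes were shifted 4-fold in noise with the spread of RE minus RS. Without further scaling, 99.0% of them were called at 2-fold, and 0.342% of unshifted genes. Such large shifts were bound to pass, so this checks the code only. It does not bear on calls near 2-fold, or on RS minus NV, where more genes passed. Figures were drawn with matplotlib 3.10.9, and values were computed in Python 3.11.15 with statsmodels 0.14.6, pandas 2.3.3 and numpy 2.4.6.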

Additional observations from a re-analysis of the deposited data

How the results depend on the processing

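No paired analysis was possible because each group has 1 array, and for the same reason no replicate could be left out. Of 150 member values under the scaling, filter and probe set alternatives, 134 stayed within 0.1 log2 of the value given above. None had another sign, and the largest move was 0.18. The 16 that moved all came from lowess or quantile normalization. The probe set and background alternatives could not move a member, since each had 1 probe set and lay above background on every array. Centring only subtracted the median over all genes (-0.01, -0.07 or -0.06), which is less than 0.1. The call of Per3 in RS against NV depended on the setting: 0 members were higher after lowess, or when RS was replaced by RE or by the mean of both restrained pools, and 2 at 1.5-fold. At 1.5-fold 1 member was lower in RE than in RS, and 1 in RE than in NV. The positive limb median in RS against NV was 0.39 after lowess, 0.37 after quantile normalization, 0.07 with RE and 0.29 with the mean of both pools. In RE against RS it was -0.32 after lowess and -0.32 after quantile normalization. The negative limb median in RS against NV was 0.11 with RE and 0.02 with the mean of both.
Of the further clock genes, 0 were higher in RS than in NV after lowess or quantile normalization. With RE in place of RS their median was -0.09, with 1 lower. At 1.5-fold RS against NV gave 5 higher and 2 lower, RE against RS gave 3 lower, and RE against NV gave 5 higher and 4 lower. With the filter on background 0 were lower in RE than in RS or in NV, since Timeless was left out.
Over all genes at 2-fold, the numbers higher and lower were 686 and 836 in the RS to NV comparison. They were 86 and 141 between RE and RS, and 559 and 998 between RE and NV. At 1.5-fold these were 2391 and 2579, 675 and 1234, and 2041 and 3123. With the filter on background 483 were lower in RS than in NV, 45 higher and 60 lower in RE than in RS, and 511 lower in RE than in NV. After centring, 123 were higher and 104 lower in RE than in RS.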
